A study of Mus musculus with 47 samples.

Results

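A set of 10 genes that encode hypothalamic feeding and hormone peptides were followed through the brain RNA-seq libraries of 3xTg mice. They were the neurohypophysial hormone genes Oxt and Avp, the releasing hormone genes Trh and Ghrh, the appetite-lowering peptide genes Pomc and Cartpt, and the appetite-raising peptide genes Agrp, Hcrt, Pmch and Gal. They were taken by symbol or Ensembl identifier, and all 10 were found among the 55416 genes of the count tables of both sexes.

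The 3xTg mouse carries mutant human APP and tau transgenes and a mutant Presenilin, and every library analysed, Control included, came from this strain. Male and female mice ate 1 of 4 amino acid defined diets for 9 months from 6 months of age: the Control diet, or one from which 67% of a single branched-chain amino acid had been taken, isoleucine in IleR, leucine in LeuR and valine in ValR. The mice were killed after a 3 h fast, the labels name the tissue as brain, and the methods name the left hemisphere. Counts were analysed for 14 males (4 Control-fed, 3 IleR-fed, 3 LeuR-fed, 4 ValR-fed) and 23 females (6 Control-fed, 5 IleR-fed, 6 LeuR-fed, 6 ValR-fed), each library called here by diet and label number, with totals from 10672599 to 25722333 counts. Of the 24 male libraries in the labels, 10 are not analysed here. The labels do not say whether a library holds 1 animal, so the p-values measure the spread between libraries.

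Hypothalamic peptide neurons are few and sit in small nuclei. Oxytocin and vasopressin are made by magnocellular and parvocellular neurons of the paraventricular and supraoptic nuclei, orexin (from Hcrt) and melanin-concentrating hormone (from Pmch) by separate neurons of the lateral hypothalamus, and the Pomc and Agrp peptides by opposing neurons of the arcuate nucleus, which sense leptin and act on melanocortin receptors. Trh, Gal and Cartpt are also made in other parts of the brain, and pituitary cells make Pomc in quantity. In bulk tissue, fewer cells of a type and less RNA per cell cannot be told apart.

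Oxt (chromosome 2, 130576173 to 130577054, plus strand, GRCm38) and Avp (chromosome 2, 130580620 to 130582554, minus strand) lie tail to tail with 3565 bases between them. Their transcripts share 1 identical run of 127 bases inside the coding sequence, at positions 156 to 282 of the 537-base Oxt transcript and 144 to 270 of the 577-base Avp transcript. Reads inside that run match both genes, and an expected count divides them by estimate, so the split between Oxt and Avp is less certain than their sum. The run is shown in capitals, with 15 bases on each side in lower case.
Oxt: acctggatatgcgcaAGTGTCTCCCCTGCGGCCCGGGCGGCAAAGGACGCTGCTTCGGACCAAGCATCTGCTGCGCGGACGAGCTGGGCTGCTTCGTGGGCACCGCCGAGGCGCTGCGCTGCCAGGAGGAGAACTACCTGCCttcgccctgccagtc
Avp: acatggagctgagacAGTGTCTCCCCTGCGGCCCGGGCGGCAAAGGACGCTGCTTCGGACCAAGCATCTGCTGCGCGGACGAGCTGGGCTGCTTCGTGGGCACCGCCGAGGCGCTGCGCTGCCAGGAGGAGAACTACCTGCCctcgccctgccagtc

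The promoter windows of Oxt, Avp, Hcrt and Pmch, are shown because these genes had the highest single-library levels in males, all in the same library. Each runs from 250 bases before to 50 bases after the RefSeq start site on build GRCm38.p6, in the direction of the gene, with capitals for any match on either strand to 4 motifs: the TATA box core TATAAA, the E-box CACGTG, the cAMP response element TGACGTCA and the nuclear receptor binding core TGACCT. The windows are chr2:130575919-130576218 (plus) for Oxt, chr2:130582539-130582838 (minus) for Avp, chr11:100762882-100763181 (minus) for Hcrt and chr10:88090822-88091121 (plus) for Pmch.
Oxt: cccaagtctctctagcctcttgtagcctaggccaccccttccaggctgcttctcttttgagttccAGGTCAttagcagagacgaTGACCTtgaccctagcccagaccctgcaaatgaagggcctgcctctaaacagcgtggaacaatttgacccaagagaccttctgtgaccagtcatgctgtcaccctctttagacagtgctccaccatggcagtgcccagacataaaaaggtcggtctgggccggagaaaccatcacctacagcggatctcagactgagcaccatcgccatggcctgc
Avp: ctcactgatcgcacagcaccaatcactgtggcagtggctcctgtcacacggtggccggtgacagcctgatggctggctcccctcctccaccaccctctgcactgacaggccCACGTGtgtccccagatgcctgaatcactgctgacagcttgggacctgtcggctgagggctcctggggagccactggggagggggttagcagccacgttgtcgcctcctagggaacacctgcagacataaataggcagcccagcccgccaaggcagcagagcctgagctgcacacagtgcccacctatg
Hcrt: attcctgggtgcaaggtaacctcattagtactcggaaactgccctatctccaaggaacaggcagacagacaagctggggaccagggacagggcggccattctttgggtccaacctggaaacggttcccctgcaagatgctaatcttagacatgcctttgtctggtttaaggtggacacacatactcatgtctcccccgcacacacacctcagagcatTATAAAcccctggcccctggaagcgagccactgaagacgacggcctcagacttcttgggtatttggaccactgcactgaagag
Pmch: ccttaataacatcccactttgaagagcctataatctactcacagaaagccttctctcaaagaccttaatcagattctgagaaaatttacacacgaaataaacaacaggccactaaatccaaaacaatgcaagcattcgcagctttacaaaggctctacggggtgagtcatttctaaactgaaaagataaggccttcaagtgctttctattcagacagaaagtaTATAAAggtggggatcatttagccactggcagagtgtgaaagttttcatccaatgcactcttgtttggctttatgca

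Hcrt held the TATA box core at position -33 and Pmch at -27, a match found in 13.6% of 32851 mouse promoter windows of this length. The Avp window held the E-box at -139, found in 7.15% of windows, and the Oxt window held TGACCT at -166 and, on the other strand, at -185, found in 16.3%. Among the other genes with a window, Cartpt held the cAMP response element at -112, found in 1.79% of windows. Pomc held the TATA box core at -25 and TGACCT on the other strand at -62. Ghrh has separate windows for alternative start sites. The window at chr2:157346606-157346905 held TGACCT at -179, and that at chr2:157337377-157337676 held the TATA box core at -31 and TGACCT at -84. Trh held TGACCT at -57, and Gal held none of the 4. These matches describe letters only.

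Levels are given as CPM, the count scaled to the TMM-normalized library size, and levels of different genes were compared per kilobase of exon. In males Cartpt had the highest median level, 4.17 CPM per kb, followed by Trh at 1.56, Gal at 1.01 and Pomc at 0.717, and the other 6 genes had medians of 0.169 or less. In females the order was Cartpt at 3.97, Trh at 1.08, Pomc at 0.853 and Gal at 0.317, with the other 6 at 0.232 or less. The ranges over libraries of every pair of neighbours in these orders overlapped. By the highest library rather than the median, Pmch led in males with 434.5 CPM per kb, in a single library.

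**Figure D1:**
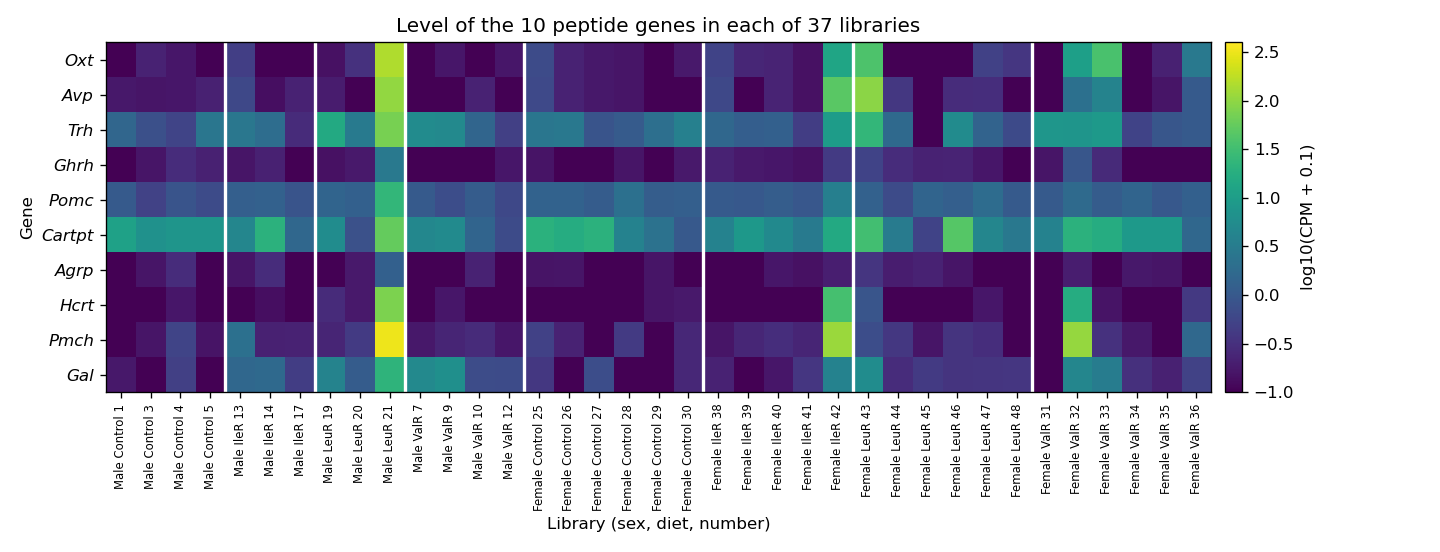
Level of each of the 10 genes (rows) in each of 37 libraries (columns, grouped by sex and diet), as log10 of CPM plus 0.1. The column of Male LeuR 21 is bright in nearly all rows, and Female IleR 42 and Female ValR 32 are bright for Oxt, Hcrt and Pmch. Female LeuR 43 and Female ValR 33 are bright for Oxt but not for Hcrt or Pmch. Avp is bright in Female IleR 42 (47.7 CPM) and Female LeuR 43 (93.2 CPM) and dimmer in Female ValR 32 and Female ValR 33. Cartpt, Trh and Pomc have counts in almost every column.

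Oxt was near 0 in most brains and high in few. In Control-fed males the Oxt counts were 0, 2, 1 and 0, in IleR-fed males 6, 0 and 0, and in ValR-fed males 0, 1, 0 and 1. In LeuR-fed males they were 1 and 3 in LeuR 19 and 20, and 2629 in LeuR 21, or 148 CPM. Of the LeuR libraries, 2 of 3 lay above every Control library, by 1 count in the case of LeuR 20.

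Female Oxt counts ranged from 0 to 10 in Control, with a median of 1. The high female libraries were ValR 33 with 654 counts (37.3 CPM), LeuR 43 with 454 (39.6 CPM), IleR 42 with 250 (12.8 CPM), ValR 32 with 219 (10.5 CPM) and ValR 36 with 47 (2.78 CPM). No other female library held more than 10 counts of Oxt, so every restricted diet had 1 or more high libraries and several at the Control level.

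Avp was higher in the same libraries, at levels that differed from those of Oxt. Male Avp counts were 1, 1, 1 and 2 in Control, 8, 1 and 2 in IleR, 2, 0 and 1828 in LeuR and 0, 0, 2 and 0 in ValR, where 1828 counts in LeuR 21 were 103 CPM. Female counts were at most 9 in Control, and reached 1067 in LeuR 43 (93.2 CPM), 931 in IleR 42 (47.7 CPM), 69 in ValR 33, 42 in ValR 32 and 16 in ValR 36.

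The balance of the 2 hormone genes differed between these libraries by more than counting error. Oxt made up 59.0% of the Oxt and Avp counts in Male LeuR 21 (exact 95% binomial interval 57.5 to 60.4%), 29.9% in Female LeuR 43 (27.6 to 32.2%) and 21.2% in Female IleR 42 (18.9 to 23.6%). It made up 83.9% in Female ValR 32 (78.9 to 88.2%) and 90.5% in Female ValR 33 (88.1 to 92.5%). The intervals cover counting error only, and the shared coding run affects each share.

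Hcrt, the precursor of the wake-promoting orexins, was at or near 0 in all but a few libraries. Its male counts were 0, 0, 1 and 0 in Control, 0, 1 and 0 in IleR, 4, 1 and 1379 in LeuR and 0, 1, 0 and 0 in ValR. Its female counts were at most 1 in Control, 680 in IleR 42 (34.9 CPM), 355 in ValR 32 (17.0 CPM), 9 in LeuR 43, 5 in ValR 36 and at most 1 in the rest.

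Pmch followed the same libraries at a higher level. Male counts of Pmch were 0, 1, 7 and 1 in Control, 33, 3 and 2 in IleR, 3, 4 and 5766 in LeuR and 1, 2, 3 and 1 in ValR, and the 5766 counts of LeuR 21 were 325 CPM. In females Pmch reached 2209 counts in ValR 32 (106 CPM) and 2203 in IleR 42 (113 CPM), then 26 in ValR 36, and was at most 7 in every other library. Pmch shares 435 exon bases with Parpbp on the opposite strand, and whether the counting used strand is not given in the sources used here.

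The ratio of Pmch to Hcrt counts was 4.18 in Male LeuR 21, 3.24 in Female IleR 42 and 6.22 in Female ValR 32. Pmch therefore took 80.7% (79.8 to 81.6%), 76.4% (74.8 to 78.0%) and 86.2% (84.8 to 87.5%) of the summed counts of both genes. These shares lay closer together than those of Oxt and Avp, though their intervals did not overlap.

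Oxt and Avp did not always come with Hcrt and Pmch. Female LeuR 43 had 133 CPM of Oxt and Avp together and 1.40 CPM of Hcrt and Pmch, and Female ValR 33 had 41.3 and 0.285 CPM. Female ValR 32 had 12.5 CPM of the hormone pair and 123 CPM of the lateral hypothalamic pair, and Female IleR 42 had 60.6 and 148 CPM. Male LeuR 21 had 252 and 403 CPM, and it held 99.1% of the counts of these 4 genes over all male libraries. None of these 5 libraries, which were picked for their high values, was from a Control-fed mouse. Control-fed mice gave 4 of the 14 male and 6 of the 23 female libraries.

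**Figure D2:**
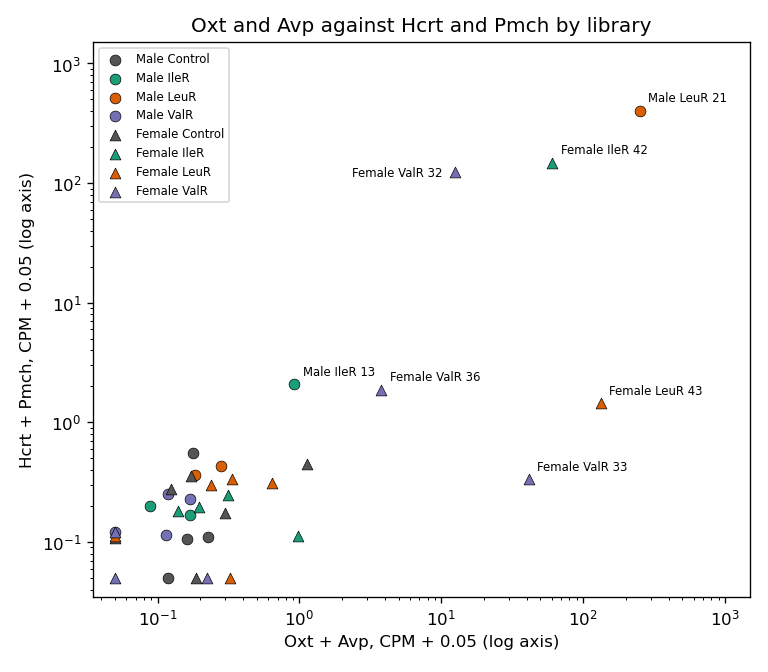
Summed CPM of Oxt and Avp (x axis) against that of Hcrt and Pmch (y axis) in each library, both plus 0.05 on log axes, with circles for males, triangles for females and colours for diets. Male LeuR 21, Female IleR 42 and Female ValR 32 are high on both axes, and Female LeuR 43 (133 and 1.40 CPM) and Female ValR 33 (41.3 and 0.285 CPM) are high on the x axis alone.

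A list of 14 transcription factors that mark hypothalamic nuclei, none of them among the 10 genes, was measured beside these levels. Its summed level was 135 CPM in Male LeuR 21, 36.1 in Female LeuR 43, 34.2 in Female ValR 32, 30.05 in Female IleR 42 and 19.5 in Female ValR 33. In Control libraries it was 4.14 to 8.47 CPM in males and 3.45 to 10.2 CPM in females, and the highest of the remaining libraries was Male LeuR 19 at 23.4 CPM, of which Otp was the largest part with 336 counts. Nkx2-4, a gene of the ventral hypothalamus, had 64 counts in Male LeuR 21, 12 in Female ValR 32, 8 in Female IleR 42, 5 in Female ValR 33 and 0 in every other library. Sim1, which specifies paraventricular neurons, had 187 counts in Male LeuR 21, 60 in Female ValR 32, 52 in Female LeuR 43, 27 in Female IleR 42, 21 in Female ValR 33 and at most 17 elsewhere.

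The arcuate and ventromedial factors also separated these libraries. Nr5a1, which marks the ventromedial nucleus, had 121 counts in Male LeuR 21 and 47 in Female IleR 42, against 7 in Female ValR 32, 4 in Female LeuR 43 and 0 in Female ValR 33. Bsx had 103 counts in Male LeuR 21, 54 in Female ValR 32, 24 in Female IleR 42, 2 in Female LeuR 43 and 4 in Female ValR 33. The 5 libraries highest in Oxt, Avp, Hcrt and Pmch together each had counts of several hypothalamus regulators. The same 5 had the highest mean log2 CPM of the 14 regulators. It was 2.67 in Male LeuR 21, 0.63 in Female ValR 32, 0.52 in Female IleR 42, 0.25 in Female LeuR 43 and -0.30 in Female ValR 33. Male IleR 13 was next at -0.99, and Male LeuR 19 was at -1.44. By summed CPM the levels did not run in step. Female ValR 36, with 47 Oxt counts, had 5.67 CPM of regulators, inside the Control range, and Male LeuR 19, with more regulator CPM than Female ValR 33, had at most 4 counts of any of the 4 peptides. The part of tissue content in the diet comparisons was not tested, since the scores used as covariates for males follow diet or a single library closely. The 10 pituitary markers, measured because that gland makes Pomc, summed to at most 2.68 CPM in any library and to 1.86 CPM in Male LeuR 21. Fshb was at 0 in all 37 libraries and Cga had at most 1 count, while Tbx19, a factor of the Pomc cells of the pituitary, had 18 counts in Male LeuR 21, 0 in every other male library and at most 3 in females. Gh had 11 counts in Male LeuR 21, 12 in Male ValR 10 and 28 in Female LeuR 47. The part of pituitary tissue in the Pomc values was not tested.

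**Figure D3:**
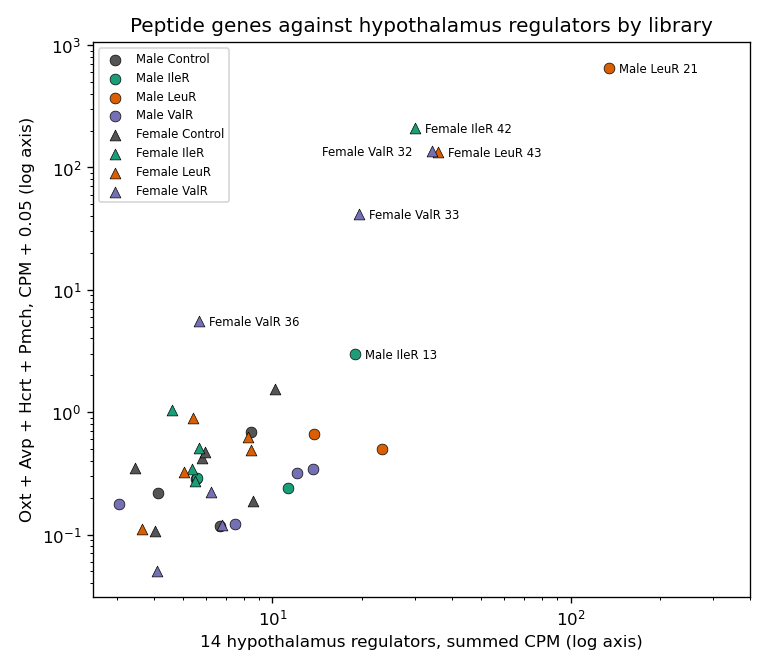
Summed CPM of the 14 hypothalamus regulators (x axis) against that of Oxt, Avp, Hcrt and Pmch plus 0.05 (y axis) for each library, on log axes. Male LeuR 21 is at 135 CPM of regulators, and 4 female libraries of restricted diets lie between 19.5 and 36.1 CPM with peptide sums far above the Control libraries.

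Trh, the precursor of thyrotropin-releasing hormone, had counts in 36 of 37 libraries. Male counts were 21, 11, 7 and 44 in Control, 41, 49 and 3 in IleR, 345, 37 and 1276 in LeuR and 75, 73, 24 and 6 in ValR. All 3 LeuR libraries were above every Control library, at 15.4, 2.84 and 72.0 CPM against at most 2.46 CPM. In females the Control median was 2.23 CPM (range 0.751 to 3.60), and the highest libraries were LeuR 43 at 24.4 CPM, IleR 42 at 9.69, ValR 33 at 8.73, ValR 31 at 7.56 and ValR 32 at 7.44. ValR 31 had no Oxt, Avp, Hcrt or Pmch count, so high Trh also occurred without them.

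Ghrh, which drives growth hormone release, was barely measured. Male counts were 0 to 3 in all libraries but LeuR 21, which had 48 (2.71 CPM). Female counts were 0 to 6 except in ValR 32, which had 17 (0.816 CPM).

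Pomc, the precursor of alpha-MSH and ACTH, was low in most libraries. Male counts were 14, 7, 12 and 10 in Control (0.414 to 0.953 CPM), 18, 32 and 13 in IleR, 30, 15 and 431 in LeuR and 13, 9, 17 and 8 in ValR, and LeuR 21 was at 24.3 CPM, against at most 1.34 CPM in every other male library. In females the Control range was 1.02 to 2.07 CPM, and only IleR 42, with 67 counts or 3.44 CPM, was above it.

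Cartpt, the CART peptide precursor, varied widely in both sexes and in Control libraries too. Male counts were 165, 109, 116 and 133 in Control, 71, 546 and 25 in IleR, 122, 9 and 982 in LeuR and 64, 77, 23 and 9 in ValR. All 4 ValR libraries lay below every Control library, at 0.573 to 5.19 CPM against 6.45 to 11.2 CPM, as did 13.6% of all tested genes in that direction. In females Cartpt ranged from 0.899 to 20.5 CPM in Control, and the highest library was LeuR 46 at 44.1 CPM, which held at most 4 counts of each of Oxt, Avp, Hcrt, Pmch, Gal, Ghrh and Agrp.

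Agrp, the orexigenic partner of Npy in arcuate neurons, was at or near 0. Its counts were at most 5 in 36 libraries and 21 (1.19 CPM) in Male LeuR 21, and no diet group had a count in every library. Its gene model shares 114 exon bases with Ctcf on the other strand and with the non-coding gene Gm5914.

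Gal, the galanin precursor, which is also made by noradrenergic neurons of the locus coeruleus, had counts above the Control libraries in males outside LeuR 21 as well. Male counts were 1, 0, 6 and 0 in Control, 24, 43 and 6 in IleR, 88, 13 and 385 in LeuR and 67, 91, 10 and 9 in ValR. All 3 LeuR and all 4 ValR libraries were above every Control library, as 8.21% and 12.7% of all tested genes were in those comparisons, and 2 of 3 IleR libraries were. Female Gal was 0 to 9 counts in Control and 91 in ValR 32, 74 in IleR 42, 64 in LeuR 43 and 56 in ValR 33, with at most 7 counts in the other restricted libraries.

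**Figure D4:**
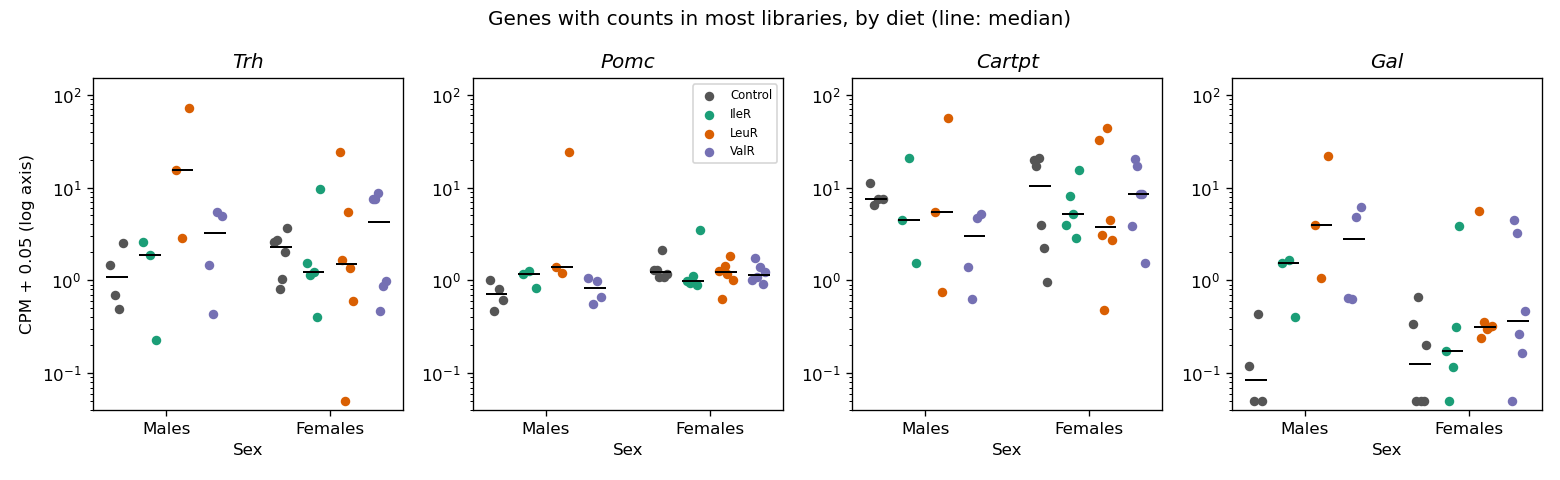
CPM plus 0.05 (log axis) of Trh, Pomc, Cartpt and Gal in each library, by sex and diet, with a line at the median of each group. Pomc is near 1 CPM in every group with Male LeuR 21 at 24.3 CPM, and the male Gal points of restricted diets lie mostly above the Control points.

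The LeuR diet in males gave the largest number of calls among the 10 genes. Of the 10, 9 were tested, since Agrp had no diet group with a count in every library, and 7 were past an adjusted p of 0.05 in edgeR's quasi-likelihood test, all higher in LeuR. Over all 22197 genes tested, 10.1% were past that threshold and 3.81% were higher in LeuR. DESeq2, which gave a p for 3 of the 10 genes, called Trh and Gal, against 16.3% of all genes. It gave a p for 22152 genes in all, so most of the 9 tested here were among the few without one. Its default setting, used here, withholds p from genes with an extreme count in a library. With limma voom Gal was called, against 10.9% of all genes. The limma voom log2 fold changes were lower for several genes, at 4.42 for Oxt (adjusted p = 0.343), 2.95 for Avp (0.447), 4.98 for Hcrt (0.212), 4.57 for Pmch (0.380) and 2.38 for Pomc (0.155). A gene was tested if all libraries of some diet group had a count, and Oxt, Hcrt and Ghrh met this through LeuR alone, while Pmch and Gal met it through the 3 restricted diets but not through Control. The 7 of 9 is therefore a description of the tested genes and not support for a change of the set. With no such minimum the same 7 genes passed, against 6.57% of 30870 genes.

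The log2 fold changes (± SE) of the appetite and hormone genes in LeuR-fed males were 10.17 ± 2.16 for Hcrt (adjusted p = 0.0136), 9.86 ± 2.20 for Oxt (0.0163), 9.54 ± 2.18 for Pmch (0.0178) and 8.68 ± 2.02 for Avp (0.0190), edgeR adjusted p in brackets. Gal differed by 6.27 ± 1.34 (adjusted p = 0.0139), Trh by 4.58 ± 1.06 (0.0190) and Pomc by 3.73 ± 0.86 (0.0184). Ghrh, at 3.27 ± 1.18 (0.0940), and Cartpt (0.445) were not past it. The LeuR libraries above every Control library were 3 of 3 for Hcrt, Trh, Pomc and Gal, 2 of 3 for Oxt and 1 of 3 for Avp and Pmch, with LeuR 20 and the highest Control library at 1 count each for Hcrt, and 8.21% of all tested genes lay wholly above Control in this comparison.

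These calls rested on Male LeuR 21. Without it, only Gal remained past the threshold, at 4.46 log2 with an adjusted p of 0.0306 in edgeR, while 14.7% of all genes passed and 7.09% were higher. Trh was at 2.90 (0.0636), Hcrt at 2.68 (0.138), Pomc at 0.92 (0.151), Oxt at 1.29 (0.620), Pmch at 0.58 (0.825) and Avp at -0.42 (0.871). The number of calls was 3 without Control 1, 1 without Control 3 and 4 without Control 5, but there the log2 fold changes of Oxt, Avp, Hcrt and Pmch stayed between 8.58 and 10.79, with adjusted p from 0.0401 to 0.0653 in edgeR. With only the LeuR and Control groups in the fit no gene of the 10 passed, and 0.0% of 21015 genes tested did. With the hypothalamus regulator score as a covariate none of the 10 passed, against 11.4% of all genes. That score, the mean log2 CPM of the 14 regulators, was 2.67 in LeuR 21 and -2.30 to -0.99 in the other male libraries. This fit is therefore close to leaving LeuR 21 out and is not a separate test. With the hindbrain score as a covariate Oxt, Avp, Hcrt and Pmch passed, 4 of the 7 genes that passed in all (0.0315%), at log2 fold changes of 18.21 to 21.85 that lie far beyond the ratio of the counts.

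Several of these fold changes divide by very few counts. The 4 Control libraries held 3 Oxt counts and 1 Hcrt count in all, and the fitted changes of such genes depend on the prior count. The summed rate in LeuR over that in Control was 1078-fold for Oxt (exact 95% counting interval 369 to 5231) and 1700.1-fold for Hcrt (305 to 67199), intervals that cover counting error only and not the difference between LeuR 21 and the other LeuR libraries.

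**Figure D5:**
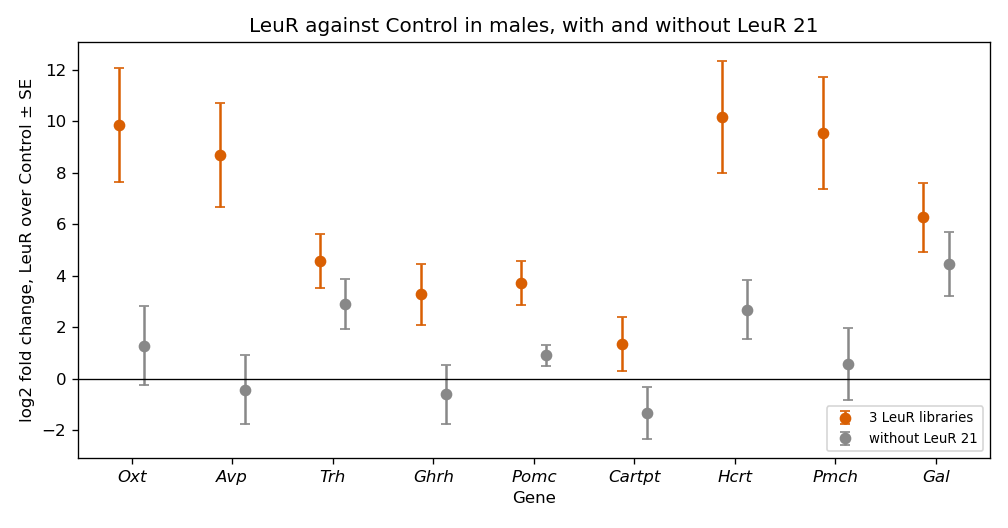
Log2 fold change of LeuR over Control in males with its standard error for each of the 9 tested genes, from the fit with all 3 LeuR libraries (orange) and without LeuR 21 (grey). Oxt, Avp, Hcrt and Pmch stand at 8.68 to 10.17 with it and at -0.42 to 2.68 without it, while Gal stands at 6.27 and 4.46.

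In ValR-fed males only Gal passed, 1 of 9 tested genes, against 23.5% of all genes in either direction and 11.1% higher. Its log2 fold change was 4.70 ± 1.31 (adjusted p = 0.0198 in edgeR), and 4 of 4 ValR libraries were above every Control library, as were 12.7% of all tested genes. The Gal call was lost without Control 1, Control 3 or Control 5, with adjusted p from 0.0552 to 0.0575 in the same test and log2 fold changes from 4.27 to 4.56. DESeq2 called 26.8% of all genes here and limma voom 23.3%, where DESeq2 called Gal (adjusted p = 0.00169) and limma voom did not (4.54, 0.0959).

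In IleR-fed males 0 of 9 genes passed in edgeR, against 15.3% of all genes. At an unadjusted p under 0.05 there was 1, Gal, against 29.6% of all genes. Gal was at 3.34 ± 1.40 (adjusted p = 0.128 in edgeR). DESeq2, with a p for 3 genes, and limma voom, with 9, called 0 as well, against 19.7% and 16.7% of all genes. No gene of the 10 lay wholly above or below Control, as 14.8% and 14.5% of all genes did. With the hindbrain score as a covariate Oxt, Avp and Pmch passed, and they were the 3 genes that passed in all (0.0135%). The fitted log2 fold changes were 23.24, 20.52 and 21.88, for genes with at most 6, 8 and 33 counts in an IleR library, so these calls are not read as higher levels.

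Regional markers moved with the male diets, and their part in the Gal values was not tested. The hindbrain score was -7.92 to -5.05 in Control-fed males, 1.97 to 4.43 in IleR, -2.58 to 4.14 in LeuR and 4.42 to 6.29 in ValR. No restricted library overlapped Control, so a fit with this score cannot separate region from diet. The cerebellum list (8 genes) summed to 21.0 to 47.0 CPM in Control-fed males, 1030 to 2788 in IleR, 113 to 1058 in LeuR and 1084 to 3576 in ValR, while the cortex list (6 genes) was 227 to 617 in Control and 22.0 to 146 over the restricted diets. The raphe and locus coeruleus list (5 genes) summed to 0.615 to 1.34 CPM in Control, 5.69 to 128 in IleR, 0.734 to 148 in LeuR and 8.60 to 20.5 in ValR. Dbh, the noradrenaline-synthesising enzyme, had 1 to 3 counts in the Control libraries, 254, 370 and 34 in IleR 13, 14 and 17, 595, 42 and 1 in LeuR 19, 20 and 21, and 68, 101, 12 and 64 in ValR 7, 9, 10 and 12. With the hindbrain score as a covariate the Gal difference was 7.54 in LeuR (adjusted p = 0.486 in edgeR) and 7.37 in ValR (0.630, where 0.0% of genes passed).

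Among restricted diets in males, 5 genes were lower in ValR than in LeuR, against 2.75% of all genes in either direction and 1.03% lower. These were Hcrt at -10.11 ± 2.17 (adjusted p = 0.0481), Oxt at -10.28 ± 2.30 (0.0481), Pmch at -9.81 ± 2.24 (0.0484), Avp at -9.76 ± 2.22 (0.0484) and Pomc at -3.54 ± 0.85 (0.0491), all in edgeR. Hcrt and Oxt met the count minimum through LeuR alone, and with no minimum the same 5 passed, against 2.29% of genes. These calls, all close to the threshold, depended on several libraries. Without LeuR 21 none passed, as 0.0% of all genes did, and none passed without Control 1, Control 3, Control 5, ValR 7, ValR 10, ValR 12 or IleR 14, while 2 passed without IleR 13. In those fits the log2 fold changes of Oxt, Avp, Hcrt and Pmch stayed between -12.20 and -9.39, whereas without LeuR 21 they were between -2.61 and -0.65. Leaving out LeuR 20 raised the number to 7. DESeq2 called Trh, 1 of the 3 with a p here, against 11.3% of all genes, and limma voom 0, against 2.54%. A stricter filter on low counts left 4 of the 10 to test (Trh, Pomc, Cartpt and Gal), of which Pomc passed, against 4.85% of genes, and in LeuR against Control Trh, Pomc and Gal passed, against 14.4%.

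IleR against LeuR and ValR against IleR in males had 0 calls among the 9 genes, as among all genes (0.0%). At an unadjusted p under 0.05, 8 of the 9 were past in IleR against LeuR, where 11.3% of all genes were, led by Hcrt at -10.09 ± 2.39 (adjusted p = 0.356 in edgeR). Hcrt, Oxt and Ghrh met the count minimum through LeuR alone, so the 8 of 9 is a description only. Without LeuR 21 Hcrt was at -2.62 and Oxt at -0.15, and Avp, Pmch and Ghrh turned to 1.75, 1.77 and 0.14. There were none in ValR against IleR, where 2.83% of all genes were. DESeq2 called Trh in IleR against LeuR, where it called 0.488% of all genes, and none of the 10 in ValR against IleR, where it called 0.0316%.

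In females 7 genes were tested, since Avp, Hcrt and Agrp had no diet group with a count in every library, and 0 passed in any of the 6 comparisons, as did 0.0% of all 20344 genes. In edgeR at an unadjusted p under 0.05 there were 1 for IleR against Control (Pmch, 7.03 ± 2.22), 1 for LeuR against Control (Oxt, 5.35 ± 2.08) and 4 for ValR against Control (Pmch, 6.70 ± 2.18, Oxt, 5.70 ± 2.08, Gal, 2.99 ± 1.36, and Ghrh, 2.33 ± 1.07), with adjusted p from 0.968 to 1.0. Of all genes, 2.84%, 4.03% and 3.82% were under it in these 3 comparisons. Oxt, Ghrh and Pmch met the count minimum through IleR alone and Gal through LeuR alone. Pmch was also under it in IleR against LeuR and in ValR against LeuR, as 6.14% and 4.98% of all genes were. DESeq2, with a p for 6 genes, and limma voom, with 7, called 0 in each. DESeq2 called 0.0393%, 0.00492% and 0.0% of all genes in IleR, LeuR and ValR against Control, 0.0934% in IleR against LeuR, 0.00983% in ValR against LeuR and 0.0885% in ValR against IleR, and limma voom at most 0.00492%. No gene of the 10 lay wholly above or below Control, as 0.108% and 0.143% of all genes did in IleR, 0.133% and 0.0836% in LeuR and 0.0737% and 0.0541% in ValR. Without IleR 42, LeuR 43, ValR 32 and ValR 33, a set left out after the values were seen, Pmch in IleR was at -0.29, Oxt in LeuR at -0.17 and Ghrh in ValR at -0.76. In ValR the others kept their direction, with Oxt at 2.19, Pmch at 1.26 and Gal at 0.11, and adjusted p of 1.0 in edgeR.

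The diet by sex interaction, males minus females, was tested for 9 genes and 0 passed in edgeR for any diet, while 0.0979% of all genes passed in IleR, 0.00445% in LeuR and 4.25% in ValR. Pomc in LeuR was at 3.86 ± 0.81 (adjusted p = 0.0886, unadjusted 3.61e-05), and Ghrh in ValR was at -4.40 ± 2.09 (0.178, unadjusted 0.0431), and these were the only 2 of the 9 under an unadjusted 0.05 over the 3 diets, while 19.1% of all genes were under it in IleR, 13.0% in LeuR and 26.0% in ValR. DESeq2 called 0 of the 4 genes with a p for each diet, against 4.68%, 1.41% and 10.4% of all genes, and limma voom 0, against 0.0%, 0.00445% and 0.129%. Without Male LeuR 21 the Pomc interaction was at 1.07 (adjusted p = 0.388 in edgeR), and it was past 0.05 without Male Control 4, Male LeuR 19 or Male LeuR 20.

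The other genes of the peptide systems were taken from lists, and none passed in females. Over all genes in males, 6.63%, 3.81% and 11.1% were higher and 8.68%, 6.33% and 12.4% lower in IleR, LeuR and ValR, and several of the counts per list lie near these shares. In males, of 15 other hypothalamic neuropeptide genes, 11 were tested, and 0 rose and 3, 2 and 4 fell in IleR, LeuR and ValR. Npy, which works beside Agrp in the arcuate nucleus but is also a cortical interneuron gene, was at -2.19 ± 0.42 in IleR (adjusted p = 0.00423), -2.02 ± 0.42 in LeuR (0.0122) and -1.86 ± 0.37 in ValR (0.00302) in edgeR. Vip, also made by cortical interneurons, was at -3.52 ± 0.50, -2.92 ± 0.48 and -4.04 ± 0.46 (adjusted p = 0.00117, 0.00526 and 0.000131, edgeR). With the hindbrain score as a covariate none of the IleR and ValR calls of the listed genes was kept, since the only genes that passed were Oxt, Avp and Pmch in IleR and 0 in ValR. That score follows diet in males, so the lost calls do not show that these differences went away. Sst fell by 1.64 in both IleR and ValR, and Pdyn fell by 2.64 in ValR.

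Of 15 receptor genes for the 10 peptides, 14 were tested in males, and 1, 3 and 0 rose and 3, 1 and 3 fell in IleR, LeuR and ValR. Mchr1, the receptor for melanin-concentrating hormone, was at -2.37 ± 0.46 in IleR and -2.58 ± 0.42 in ValR (adjusted p = 0.00448 and 0.000790, edgeR), and at -1.12 ± 0.43 in LeuR (0.114). Oxtr, the oxytocin receptor, was at -1.91 in IleR (0.0496) and -2.02 in ValR (0.0185), Trhr2 fell by 1.48, 1.65 and 2.17 in the 3 diets, and Galr3, a galanin receptor, was at 2.05 in IleR (0.0378) and 2.65 in LeuR (0.0165), all edgeR adjusted p. Of 12 hormone and nutrient receptor genes of feeding circuits, 0, 1 and 0 rose and 3, 1 and 4 fell, with Npy1r at -1.97 in IleR and -2.28 in ValR. Of 10 genes that process peptide precursors or fill dense core vesicles, 0, 1 and 1 rose and 2, 2 and 4 fell, with Pcsk2, the prohormone convertase 2 gene, at -1.32 ± 0.22, -1.07 ± 0.21 and -1.44 ± 0.20. Medians over the tested genes of these 4 lists were between -1.64 and 1.16, against 0.03 to 0.05 over all genes.

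The regional and marker lists gave the frame in which these genes moved in males. The raphe and locus coeruleus list had 5, 4 and 2 of 5 genes higher in IleR, LeuR and ValR, the cerebellum list 8, 5 and 8 of 8 and the brainstem and spinal cord list 3, 5 and 7 of 8. The cortex list had 5, 4 and 5 of 6 lower and the striatum list 4, 0 and 4 of 6. The hypothalamus regulator list had 6 of 14 tested and 1 higher in each diet (Otp), the olfactory bulb list had 1 higher and 1 lower in each, the pituitary list had 1 of 2 tested genes higher in ValR (Tshb), the thalamus list had 1 of 7 lower in ValR (Lef1), and the choroid plexus list had 0 of 6. In females no list gene passed in any diet.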

How the data were processed

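RNA was extracted from brain, and 1 protocol text names liver, and the sources name both a polyA mRNA kit and a total RNA kit. The authors aligned reads to GRCm38.p5 and deposited expected counts, not normalized, for each library by Ensembl gene. The count tables carry the name of RSEM, and the aligner, versions and strand setting are not given in the sources used here. Their tables of limma comparisons (fold changes and p-values) were not used, and their methods mention clear outliers removed from their own analysis. The submitters' processing notes name R 3.4.3, edgeR and limma. Gene positions came from GENCODE M21 (GRCm38) and promoter sequences from RefSeq for 9 of the 10 genes.

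Expected counts were rounded. A gene was tested in a sex if all libraries of some diet group there had 1 or more counts. edgeR 4.0.16 (R 4.3.3) fitted the 4 diets of a sex in 1 model with TMM, the quasi-likelihood test and Benjamini-Hochberg adjustment over all genes at 0.05. The interaction came from 1 model of 37 libraries. Standard errors were the fold change over the root of the F statistic. DESeq2 1.42.0, limma 3.58.1 voom, RLE factors, other filters, covariates and left-out libraries were alternatives. Log2 CPM used a prior count of 2. The tests were run on simulated data with a fixed spread, changes only in genes with higher counts and no outlying library. Changes in genes near 0 that rest on a single high library were not simulated. The 73 library pairs compared within groups all differed by more than counting noise. Replicate groups came from the labels.

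The 10 genes, the 14 lists (128 genes) and the tests were chosen with earlier results of these data known. The naming rule took the 10 genes, from each list up to 4 genes past 0.05 against Control with the smallest adjusted p (otherwise the 2 highest), and, where mean log2 CPM was 0 or above, the 3 genes most alike, of which 1 is not reported here. Regulators other than Otp, and Cga, Fshb, Gh and Tbx19, were named after their values were seen. Fold changes were given where the unadjusted p was under 0.05.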

Additional observations from a re-analysis of the deposited data

Results flagged for a closer look

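In groups of 4 to 10 libraries, the highest library stood apart from the rest of its group in 26 of 60 tests of gene and group, judged by Dixon's gap against the range. Chance flags about 1 in 20 groups of continuous values, but a group with 1 nonzero library is always flagged, whatever its count, and genes of the same library are not independent, so the 26 are not read against that rate.

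Female IleR 42 stood apart for 7 genes, at 113 CPM for Pmch, 47.7 for Avp, 34.9 for Hcrt, 12.8 for Oxt, 9.69 for Trh, 3.79 for Gal and 3.44 for Pomc. Female LeuR 43 stood apart for 5 genes, at 93.2 CPM for Avp, 39.6 for Oxt, 24.4 for Trh, 5.59 for Gal and 0.786 for Hcrt. Female ValR 32 stood apart at 106 CPM for Pmch, 17.0 for Hcrt and 0.816 for Ghrh, and Female ValR 33 at 37.3 CPM for Oxt.

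The other flags were of few counts or low levels. In Control-fed females, library 25 was at 0.571 CPM for Oxt and 0.514 for Avp (10 and 9 counts), and library 28 was at 2.07 CPM for Pomc (34 counts). In males, Control 4 was at 0.446 CPM for Pmch and 0.0637 for Hcrt (7 and 1 counts), Control 5 at 0.112 for Avp, ValR 10 at 0.118 for Avp and 0.118 for Agrp (2 counts each), ValR 9 at 0.0674 for Hcrt and ValR 12 at 0.0637 for Ghrh (1 count each). The male LeuR group has 3 libraries and was not tested in this way.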

How the results depend on the processing

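No paired analysis was possible because every library has a label number of its own and no number is shared between groups. For LeuR against Control in males, the number of the 10 genes past 0.05 was 7, and it was 2 with DESeq2 (3 with a p), 1 with limma voom, 3 with a stricter filter (4 tested), 4 with the hindbrain score, 0 with the hypothalamus regulator score, 0 with only the 2 groups, and 1 to 7 when 1 library was left out. For ValR against LeuR it was 5, and it was 1 with DESeq2 (3 with a p), 0 with limma voom, 1 with a stricter filter (4 tested), 0 with each score, 0 with only the 2 groups and 0 to 7 with 1 library left out. For ValR against Control it was 1, and 0 with limma voom, 0 with the hindbrain score and 0 to 1 with 1 library left out. For IleR against Control it was 0, and 3 (Oxt, Avp and Pmch) with the hindbrain score. For IleR against LeuR it was 0, and 1 with DESeq2. The interaction for LeuR gave 0, and 0 to 1 with 1 library left out. The causes were not tested, apart from the number of genes tested with DESeq2 and the stricter filter.

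Direction turned in these cases, given as log2 fold changes. With the regulator score, LeuR against Control in males gave -0.27 for Oxt, -1.87 for Avp, -1.24 for Ghrh and -1.24 for Pmch, IleR against LeuR gave 1.41 for Avp, 0.10 for Ghrh and 1.61 for Pmch, and ValR against LeuR gave 0.21 for Cartpt and 0.19 for Pmch. With the hindbrain score, IleR against LeuR gave 1.38 for Oxt, 1.63 for Avp and 1.92 for Pmch, and ValR against LeuR gave 4.76 for Oxt, 3.29 for Avp and 3.73 for Pmch. Without IleR 42, LeuR 43, ValR 32 and ValR 33 together, Pmch in IleR against Control and IleR against LeuR in females was -0.29 and -0.18, Oxt in LeuR -0.17 and Ghrh in ValR -0.76. With 1 library left out, the range was -0.42 to 9.27 for Avp and -0.59 to 3.86 for Ghrh in LeuR against Control, -8.78 to 1.75 for Avp, -4.65 to 0.14 for Ghrh and -9.78 to 1.77 for Pmch in IleR against LeuR (males), -0.30 to 7.52 for Pmch in IleR against Control, -0.68 to 7.15 for Pmch in IleR against LeuR, and -0.17 to 6.52 for Oxt in LeuR against Control (females). Levels without TMM stayed within 1 SD of the main values for all 80 gene and group means. Depth limits Agrp, Ghrh and the Control levels of Oxt, Avp, Hcrt and Pmch, which sit at a few counts.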

Other observations

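The genes most like each expressed gene over the libraries of a sex were sought among 15405 genes in males and 15346 in females, by Pearson's r of log2 CPM. The libraries share depth and regional makeup, and r without the 2 libraries farthest from the median is given in brackets. Over 14 male libraries, Gal was most like Gpx3 (0.949 [0.916]), Armcx6 (0.945 [0.902]) and Sdc3 (0.944 [0.936]), and Cartpt was most like Cntnap2 (0.918 [0.845]), Gm20604 (0.893 [0.764]) and Gm20388 (0.892 [0.915]). Trh was most like Pin4 (0.902 [0.798]), Ecel1 (0.902 [0.809]) and Ankrd35 (0.873 [0.820]). Pomc was most like Megf6 (0.961 [0.605]), Sytl4 (0.910 [0.180]) and Mesd (0.901 [0.592]), and the lower values without Male LeuR 21 and Male Control 3 show how far they rest on those libraries. Over 23 female libraries, Cartpt was most like Ptpro (0.898 [0.864]), Alk (0.892 [0.888]) and Pcdh11x (0.888 [0.836]). Among the genes most like Trh were Gm38287 (0.752 [0.615]) and Celf6 (0.745 [0.535]), and Pomc was most like Vcp-rs (0.669 [0.637]), Mcrip1 (0.667 [0.395]) and Gm10359 (0.666 [0.509]).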
